A study of Rosa rugosa with 9 samples.

Results

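Roots of the rose Rosa rugosa 'Zizhi' carried transcripts of 6 protease genes at or near 0 in libraries of fully fertilized plants. The same genes were far above that level in 4 of 6 libraries of plants given humic acid. The genes were taken from a list of 6 IDs out of 47983 genes in the deposited table, and all 6 were found. They are a pair of papain-like cysteine protease genes described as SAG39 (Rru02G042080 and Rru02G042110), a pair of vacuolar-processing enzyme genes (Rru07G030270 and Rru07G030280), subtilisin-like protease 3 (Rru07G020650) and serine carboxypeptidase 1 (Rru02G059650). The genes were selected on their counts in these libraries, being at or near 0 in CK and higher with humic acid, so their difference from CK is a description here and carries no test.

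All plants grew in sand in greenhouse pots and were watered weekly with 200 ml of Hoagland's solution for 37 weeks. CK plants received 0.092 g of NH4H2PO4, the full phosphorus supply, without humic acid (HA). HA1 plants received 0.0552 g of NH4H2PO4 and 0.0368 g of HA, which left 60% of the phosphate salt, and HA2 plants received 0.0368 g of NH4H2PO4 and 0.0552 g of HA, which left 40%. Each group has 3 libraries of tender roots. Phosphate and ammonium fell as HA rose, so these cannot be told apart. Nothing in the labels ties replicates to separate plants. The p-values therefore describe variation among these 9 libraries alone, which may be technical.

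Papain-like proteases, subtilases and serine carboxypeptidases are made as inactive precursors in the secretory pathway, and vacuolar-processing enzymes, also called legumains, cut proteins after asparagine and activate other vacuolar proteins. In rice, SAG39 is named for its expression in senescing leaves. Subtilisin-like protease 3 takes its description from SBTM3 of Lotus japonicus and serine carboxypeptidase 1 from SCP1 of Medicago truncatula, and in those legumes both are known from roots colonized by arbuscular mycorrhizal fungi. Such fungi form branched arbuscules inside root cortex cells and pass phosphate to the plant, and the plant takes the arbuscules down again after some days. From Rosa chinensis, Rru07G020650 is described as subtilisin-like protease SBT1.7 and Rru02G059650 as serine carboxypeptidase II-3-like. Whether either is the counterpart of the legume gene was not tested.

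Libraries held 33847262 to 42988605 counts each, so that 3 counts corresponded to 0.0637 to 0.0903 CPM (a library's counts scaled to a common total by TMM). The label of root fitted the markers, since 6 of 6 genes for Casparian strip membrane proteins, which are specific to the endodermis of roots, were detected, at a summed 62.2 to 145 FPKM in CK, 64.6 to 118 FPKM in HA1 and 65.9 to 166 FPKM in HA2. Green tissue genes summed to 190 to 429 FPKM in CK, 107 to 160 FPKM in HA1 and 70.3 to 219 FPKM in HA2, and their part in the results was not tested. In these bulk samples fewer cells of a type and less RNA per cell cannot be told apart. HA2 replicate 3 stood apart from the other HA2 libraries on the first principal component, at -45.8 against 66.3 and 39.7, with CK at -131 to -42.3, and results that rest on it are given with its own values.

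The 6 genes were not fully absent from control roots. CK replicate 2 had 0 counts for all 6 genes, and CK replicate 3 had 0 counts for 5 of them and 10 counts for Rru07G030280. CK replicate 1 had 6 to 20 counts for each of the 6 genes, 69 in all. These counts were 0.435% to 2.06% of the same gene's CPM in HA1 replicate 1.

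The SAG39 gene Rru02G042080 had 0.127, 0 and 0 CPM in CK replicates 1 to 3, 29.3, 6.38 and 0.804 CPM in HA1, and 11.2, 0.721 and 23.8 CPM in HA2. Every HA library lay above the highest CK library, and within each HA group the replicates differed widely. The group means were 12.2 ± 15.1 CPM in HA1 and 11.9 ± 11.6 CPM in HA2 (SD, n = 3 each), which is 286 times (counting interval 132 to 780) and 280 times (129 to 763) the CK mean. The 6 counts behind the CK mean all came from replicate 1. The counting intervals cover counting error in these CK counts alone and leave out the spread among libraries.

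The other SAG39 gene, Rru02G042110, lay at 0.17, 0 and 0 CPM in CK, 12.8, 2.98 and 0.172 CPM in HA1, and 5.66, 0.25 and 13.4 CPM in HA2. HA1 replicate 3 and CK replicate 1 were level, with 6 and 8 counts. Exact Poisson intervals for these were 2.2 to 13.1 and 3.45 to 15.8 counts.

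Among the vacuolar-processing enzymes, Rru07G030280 reached the highest CPM of the 6 genes. Its values were 0.425, 0 and 0.235 CPM in CK, 36, 9.12 and 0.718 CPM in HA1, and 18.7, 0.361 and 45.7 CPM in HA2. HA2 replicate 2 fell within the CK range. Its neighbour by ID, Rru07G030270, had 0.34, 0 and 0 CPM in CK, 21.9, 5.66 and 0.517 CPM in HA1, and 10, 0.277 and 29.7 CPM in HA2, and again HA2 replicate 2 lay below CK replicate 1.

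Subtilisin-like protease 3 (Rru07G020650) had 0.234, 0 and 0 CPM in CK, 14.7, 5.18 and 0.258 CPM in HA1, and 10.3, 0.444 and 28.4 CPM in HA2. HA1 replicate 3, with 9 counts, and CK replicate 1, with 11 counts, were close. The carboxypeptidase gene Rru02G059650, whose product removes amino acids from the carboxyl end of proteins, had 0.17, 0 and 0 CPM in CK, 8.26, 2.2 and 0.287 CPM in HA1, and 8.41, 0.388 and 19.9 CPM in HA2. For the 5 genes other than Rru02G042080, the HA1 mean was 63.3 to 93.7 times and the HA2 mean 98.2 to 169 times the CK mean.

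**Figure D1:**
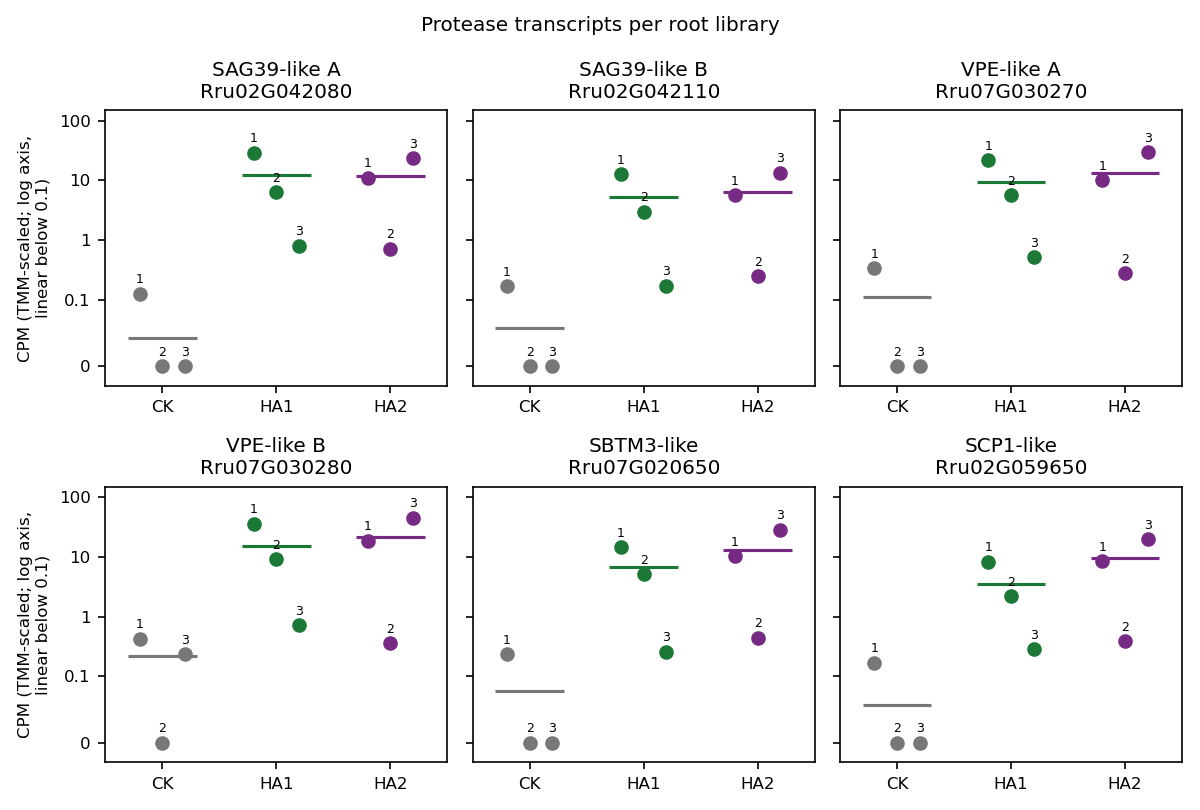
Each panel shows 1 protease gene; points are libraries, numbered by replicate, bars are group means, and the vertical axis is TMM-scaled CPM on a log scale that is linear below 0.1. HA1 replicate 3 and HA2 replicate 2 lie close to CK replicate 1 in most panels, and the other 4 HA libraries lie far above it.

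The 6 genes divided the HA libraries in the same way. Their summed level was 161 CPM in HA2 replicate 3, 123 CPM in HA1 replicate 1, 64.3 CPM in HA2 replicate 1 and 31.5 CPM in HA1 replicate 2. It was 2.76 CPM in HA1 replicate 3 and 2.44 CPM in HA2 replicate 2, next to 1.46 CPM in CK replicate 1. The first 4 of these libraries were the 4 highest for 6 of 6 genes, a pattern found in 261 of 25260 tested genes (1.03%). Since these 4 libraries were picked from the same 6 genes, themselves selected as higher with HA, nothing is read from this count. HA1 replicate 2 was the lowest of these 4 libraries in 6 of 6 genes. HA2 replicate 3 was the highest library for 5 genes and HA1 replicate 1 for Rru02G042080. Within HA1, replicate 1 exceeded replicate 3 by 28.8-fold (Rru02G059650) to 74.1-fold (Rru02G042110). Within HA2, replicate 3 exceeded replicate 2 by 33-fold (Rru02G042080) to 127-fold (Rru07G030280).

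By TMM-scaled CPM the HA1 libraries all lay above the CK libraries in 6 of 6 genes, where 22.7% of all tested genes did so. The count was 4 of 6 by total count scaling and by the deposited FPKM. HA2 libraries all lay above CK in 4 of 6 genes on each of the 3 scales, where 11% of all tested genes did so by TMM-scaled CPM. Since the genes were picked for being low in CK, nothing is read from these counts.

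The comparison of HA2 with HA1 was not used to choose the genes and asks whether the larger replacement of phosphate by HA changed their level. All 6 genes passed the filter on low counts and were tested. The edgeR quasi-likelihood test found no difference for any of the 6, with adjusted p from 0.621 to 0.993. Overall 0 of 25260 genes passed in this comparison (0%), with 4069 genes at an unadjusted p under 0.05 and 947 called by DESeq2, none of them among the 6. In 0 of 6 genes did every HA2 library lie above every HA1 library, where 10.1% of all tested genes did so. The log2 fold change, HA2 over HA1, was 1.41 ± 1.31 (SE, n = 3 each) for Rru02G059650, with a 95% interval of -1.54 to 4.36, and 0.96 ± 1.39 for Rru07G020650, with an interval of -2.17 to 4.09. The vacuolar-processing pair lay at 0.51 ± 1.44 (Rru07G030270) and 0.50 ± 1.41 (Rru07G030280), and the SAG39 pair at -0.03 ± 1.24 (Rru02G042080) and 0.28 ± 1.38 (Rru02G042110). The interval for Rru02G042080, -2.84 to 2.77, leaves room for a change of several fold either way. The spread within each group was as large as the group mean or nearly so, for example 9.58 ± 9.82 CPM in HA2 and 3.58 ± 4.16 CPM in HA1 for Rru02G059650 (SD).

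**Figure D2:**
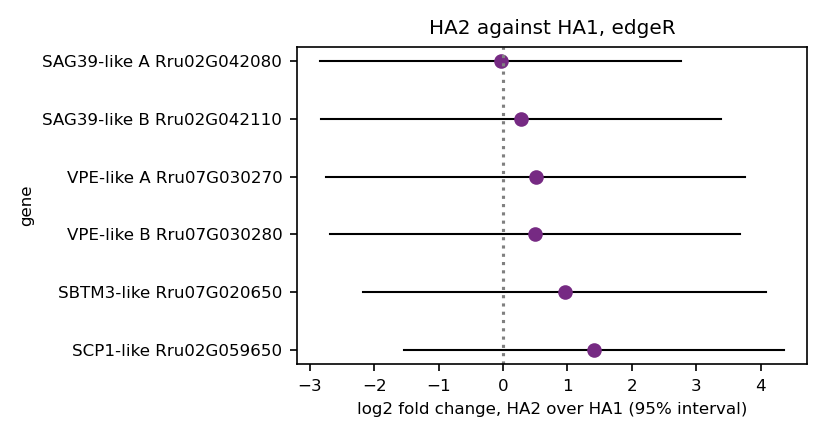
Points show the log2 fold change of HA2 over HA1 from the edgeR fit for each protease gene, and lines its 95% interval. Every interval spans 0, from -1.54 to 4.36 for the serine carboxypeptidase to -2.84 to 2.77 for the SAG39 gene Rru02G042080.

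Proportions between the genes held over this range better than the levels did. Per length, Rru07G030280 was 1.71, 1.23 and 1.41 times Rru07G030270 in HA2 replicates 1 to 3, and 1.5, 1.47 and 1.29 times in HA1, while either gene alone varied at least 42.4-fold within HA1. Rru02G042080 was 1.98, 3 and 1.77 times Rru02G042110 by FPKM in HA2, and 2.3, 2.15 and 4.51 times in HA1. Near-identical copies can share reads, and how the authors counted such reads is not given, so the split within either pair is uncertain. The FPKM ratio of Rru02G042080 to Rru02G059650, singled out after its values were seen, was 1.87, 2.79 and 1.68 in HA2 and 5, 4.1 and 3.94 in HA1. The 15 ratios that 6 genes allow are not separate from each other, and none passed. With 3 libraries a group a two-sided exact permutation test cannot go below 0.1, and the smallest p adjusted over the 15 ratios was 0.3.

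Set against their families by FPKM, the 6 genes were minor members except for the vacuolar-processing pair. That pair made up 24.3%, 5.14% and 0.435% of the summed FPKM of 8 vacuolar-processing enzyme genes in HA1 replicates 1 to 3, and 11.4%, 0.2% and 10.6% in HA2, against 0.253%, 0% and 0.0424% in CK. The SAG39 pair reached at most 3.1% of the papain-like list (HA1 replicate 1), Rru07G020650 at most 3.32% of the subtilisin-like list (HA2 replicate 3) and Rru02G059650 at most 2.83% of the serine carboxypeptidase list (HA2 replicate 3).

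**Figure D3:**
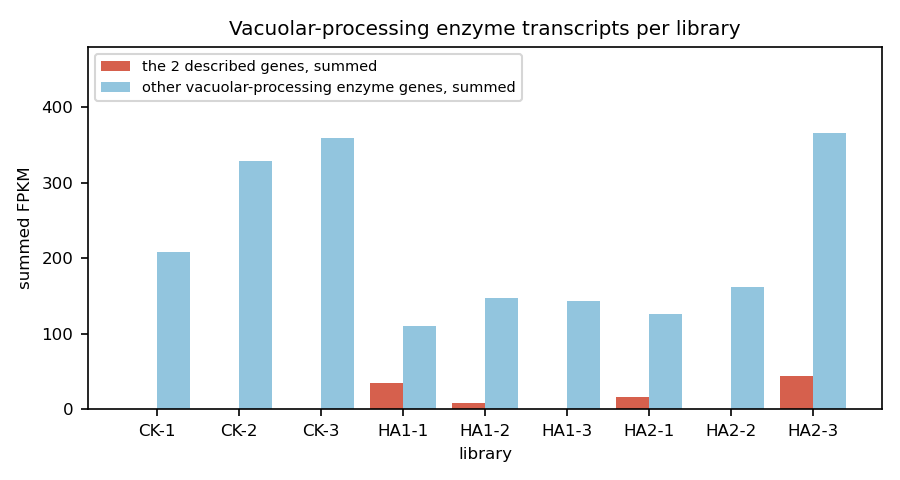
Bars show summed FPKM per library for the described pair of vacuolar-processing enzyme genes and for the other genes of that family. The pair reaches 35.2 FPKM in HA1 replicate 1 and 43.4 FPKM in HA2 replicate 3, and the summed level of the other genes is above that of the pair in every library.

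Of the 6 other vacuolar-processing enzyme genes, 3 were tested and had counts in all libraries, 2 had 0 counts throughout and Rru07G039140 had 2 counts in all. Legumain (Rru07G022170) averaged 132 ± 43.8 CPM in HA1 and 265 ± 282 CPM in HA2, against 342 ± 176 CPM in CK (SD, n = 3 each). Vacuolar-processing enzyme Rru06G060890 averaged 186 ± 52.4 CPM in HA1 and 236 ± 27.6 CPM in HA2, against 224 ± 33.9 CPM in CK. Of the 3 tested genes, 0 passed edgeR in either comparison with CK, with adjusted p of 0.196 or more. Of all tested genes, 21.2% passed in HA1 against CK and 0.00396% in HA2 against CK.

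Most other SAG39 copies had a different profile over the libraries. The table holds 20 genes with this description, of which 18 were detected and 16 tested. Of the 14 tested copies other than the described pair, 13 were highest in HA2 replicate 3, which held 87.3% to 94.1% of each gene's CPM summed over the 9 libraries. Their levels were 9.45 to 68.3 CPM there and at most 2.33 CPM in any other library. In these 13 copies HA2 replicate 3 exceeded HA1 replicate 1 by 14.4-fold to 39.3-fold, while in the described pair the ratio was 0.813 (Rru02G042080) and 1.05 (Rru02G042110). HA2 replicate 1, at 11.2 and 5.66 CPM for the described pair, had at most 0.116 CPM of the 13. The remaining copy, Rru01G030950, was highest in HA1 replicate 3. These copies were grouped after their values were seen, and the difference rests on 1 library and was not tested.

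**Figure D4:**
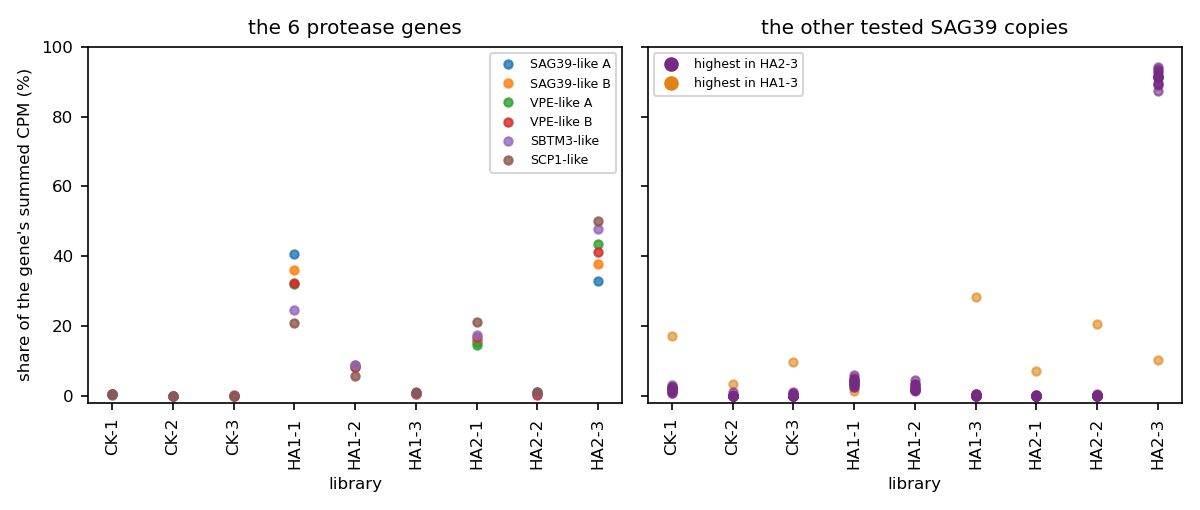
Points give the share of a gene's CPM, summed over 9 libraries, that each library holds, for the 6 protease genes (left) and for the other 14 tested SAG39 copies (right). The 6 genes are spread over 4 HA libraries, whereas 13 of the other copies have 87.3% to 94.1% in HA2 replicate 3.

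Of the copies that share a description with the remaining members, those tested are given here. Rru02G059640, a further serine carboxypeptidase 1 gene with the ID next to Rru02G059650, had 2, 0 and 0 counts in CK, 70, 15 and 5 counts in HA1, and 105, 0 and 210 counts in HA2. Serine carboxypeptidase 1 gene Rru06G034790, described from Hordeum vulgare, had 2315 to 3427 counts in every library. The Medicago truncatula description also covers Rru06G058080, with 309 to 893 counts in every library, and Rru06G058090, with 6 to 39. Neither was near 0 in all CK libraries, where Rru06G058080 had 893, 547 and 722 counts and Rru06G058090 had 39, 34 and 7. Subtilisin-like protease 4 (Rru07G020620), close by ID to Rru07G020650, had 38 to 113 counts in every library.

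The protease families as a whole held genes that rose and genes that fell. Over 7 lists of proteases and their inhibitors without the 6 genes, 194 genes were tested. In HA1 against CK 16 rose and 15 fell by edgeR with Benjamini-Hochberg adjustment, 16% of those tested, where 21.2% of all 25260 genes passed. The median log2 fold change was -0.25 over the lists and -0.02 over all genes. Without CK replicate 1, 0 genes of these lists and 0 of all genes passed. The lists had 1 call without CK replicate 3 and 10, 2 and 12 calls without HA1 replicates 1, 2 and 3. In HA2 against CK 0 of the 194 passed edgeR, where 1 of all 25260 genes passed (0.00396%). At an unadjusted edgeR p under 0.05 were 43 of the 194 genes and 5233 of the 25260. DESeq2 called 21 genes of the lists and 2189 of all genes. With a replicate block 0 genes of the lists and 0 of all genes passed edgeR, though the labels do not say that the numbers pair these groups.

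Of 35 papain-like genes in HA1, 1 rose, 1 fell and 33 did not pass, where 10.9% of all tested genes rose and 10.3% fell. Probable cysteine protease RD21B (Rru06G009400) rose by 1.59 ± 0.35 (log2 fold change ± SE), and the calpain DEK1 (Rru05G074090), which the word match placed here and which acts in epidermal development, fell by 0.64 ± 0.19. Of 38 subtilisin-like genes 0 rose and 4 fell, among them SBT1.6 (Rru06G002040), at 9.69 ± 1.55 CPM in HA1 and 48.8 ± 27 CPM in CK. Of 43 serine carboxypeptidases 1 rose, serine carboxypeptidase-like 20 (Rru03G000440) with 18.4 ± 1.95 CPM in HA1 and 8 ± 3.66 CPM in CK, and 2 fell. The lowest p of this list belonged to 1 that fell, serine carboxypeptidase-like 18 (Rru04G011420), at 2.47 ± 0.568 CPM in HA1 and 10.6 ± 1.65 CPM in CK. The medians of these lists were 0.47, -0.59 and -0.42. The edgeR adjusted p of the named genes lay between 0.00912 and 0.0424.

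Aspartic proteases, which work in acidic compartments, had 9 of 43 genes up and 4 down in HA1, where 10.9% of all tested genes rose and 10.3% fell. Aspartic proteinase Rru05G002080 averaged 199 ± 31.7 CPM in HA1 and 74.7 ± 23.5 CPM in CK, and aspartic proteinase NANA (Rru05G018050) 58.9 ± 8.97 CPM in HA1 and 14.5 ± 5.92 CPM in CK. Aspartyl protease family protein 2 (Rru04G046670) fell, at 0.622 ± 0.137 CPM in HA1 and 4.23 ± 1.82 CPM in CK. Of 12 metacaspases, cysteine proteases known from plant cell death, 4 rose and 0 fell, including metacaspase-1 (Rru01G024060), at 19.2 ± 7.09 CPM in HA1 and 6.13 ± 1.27 CPM in CK. A further metacaspase-1 gene that rose, Rru01G023760, was near 0 in CK, at 0.834 ± 0.503 CPM in HA1 and 0.0354 ± 0.0613 CPM in CK. Protease inhibitors had 1 of 20 up and 4 down. Cysteine proteinase inhibitor 12 (Rru03G040270), a cystatin that blocks papain-like proteases, was among those that fell, at 48.9 ± 12.3 CPM in HA1 and 100 ± 28.7 CPM in CK. Of 10 senescence genes other than SAG39, 0 rose and 1 fell. In the order of this paragraph, the list medians were -0.32, 0.11, -0.20 and 0.69, and the edgeR adjusted p of the named genes lay between 0.0128 and 0.0346.

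The genes nearest in pattern to the 6 proteases were found by the root mean square difference of centred log2 CPM over the 9 libraries from the mean of the 6. The median of this difference was 3.26 over the other 25254 tested genes, and the 6 proteases themselves lay at 0.258 to 0.585. The nearest 10 lay at 0.314 to 0.575. They were umecyanin (Rru02G003520), a blue copper protein, and related genes Rru02G003630 and Rru02G003580, low affinity inorganic phosphate transporter 4 (Rru01G053280 and Rru01G053270), glutathione S-transferase U19 (Rru05G060100), a GDSL esterase (Rru02G012720), ABC transporter STR (Rru07G001290), a gene with a LysM domain (Rru02G068770) and germin-like protein 9-3 (Rru05G040020). Being picked for their likeness, 10 of these 10 had HA1 replicates 1 and 2 and HA2 replicates 1 and 3 as their 4 highest libraries, and 0 counts in CK replicate 2. Umecyanin, for example, had 0.17, 0 and 0 CPM in CK, 16.2, 3.94 and 0.201 CPM in HA1, and 5.83, 0.194 and 13.8 CPM in HA2.

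Genes known from arbuscule-containing root cells moved with the proteases in part. The list has 19 genes for phosphate transporter 4, RAM1, RAM2, STR, STR2, vapyrin and ammonium transporter 3 member 1, roles known from Medicago truncatula, petunia and other hosts. It summed to 8.08, 5.23 and 9.48 FPKM in CK, 25.7 to 70.6 FPKM in HA1 and 14.7 to 51.6 FPKM in HA2. Of 15 tested genes, 7 shared the 4 highest libraries of the proteases, as did 1.03% of all tested genes. The 7 were both phosphate transporter 4 genes, RAM2 genes Rru02G075040 and Rru04G055040, STR genes Rru07G001290 and Rru03G038810, and STR2 (Rru07G039500). Both phosphate transporter 4 genes and Rru07G001290 are also among the nearest genes picked for likeness. Since the 4 libraries were picked from the proteases, nothing is read from this count. STR2 had 0.0849, 0 and 0 CPM in CK, 3.36, 1.23 and 0.0574 CPM in HA1, and 2.03, 0 and 8.7 CPM in HA2. STR gene Rru03G038810 was at 0 in the 3 CK libraries, HA1 replicate 3 and HA2 replicate 2. The other tested members did not share these 4 highest libraries. RAM1 gene Rru02G080350 had 0.34, 0 and 0.188 CPM in CK, 0.799, 0.331 and 0 CPM in HA1, and 0.435, 0.166 and 3.7 CPM in HA2. RAM1 gene Rru06G024170 had 0.51, 0.085 and 0.706 CPM in CK, 0.342, 0.0602 and 0.201 CPM in HA1, and 0.435, 0 and 0.536 CPM in HA2. RAM2 gene Rru06G015850 had 6.62, 5.21 and 3.73 CPM in HA1, 2.55, 2.3 and 1.9 CPM in HA2, and 1.63, 1.81 and 1.46 CPM in CK. Vapyrin (Rru03G042370) had 2.97, 2.98 and 2.96 CPM in HA1, 2.67, 1.14 and 3.53 CPM in HA2, and 0.446, 0.369 and 0.4 CPM in CK. Ammonium transporter 3 member 1 (Rru03G031940) had 27.3, 11.6 and 17.5 CPM in HA1, 7.8, 4.1 and 1.9 CPM in HA2, and 1.63, 1.16 and 2.45 CPM in CK. In HA2 replicate 3 this transporter gene lay within its CK range.

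In HA1 against CK 7 of the 15 rose by edgeR and 0 fell, where 10.9% of all tested genes rose and 10.3% fell, and the list's median log2 fold change was 3.42. Of these 7, the phosphate transporter pair shared the library pattern of the proteases. The list was chosen with earlier results of these data known, and without CK replicate 1, 0 of all genes passed. In HA2 against CK 0 of the 15 passed edgeR, where 1 of all 25260 genes did. At an unadjusted edgeR p under 0.05 were 11 of the 15 and 5233 of all genes. Of 8 genes of the common symbiosis pathway, which plants express before a fungus arrives, 1 rose in HA1, calcium and calcium/calmodulin-dependent protein kinase (Rru07G035130), at 60.8 ± 6.3 CPM in HA1 and 27.6 ± 14.2 CPM in CK with an adjusted p of 0.039. Nodulation receptor kinase Rru02G076290 had 0 CPM in the 3 CK libraries, 0.411, 0.271 and 0 CPM in HA1, and 0.348, 0.0832 and 1.29 CPM in HA2, and did not pass, with an edgeR adjusted p of 0.0873 for HA1 and 0.147 for HA2. The 4 highest libraries of Rru02G076290 were those of the proteases. The other gene of this description, Rru02G024360, had 39.9, 106 and 37.6 CPM in CK. It had 44.2, 68.7 and 51.8 CPM in HA1, and 67.7, 63.8 and 141 CPM in HA2. Rru02G024360 did not pass, with an edgeR adjusted p of 0.827 for HA1 and 0.503 for HA2. The labels mention no fungus, fungal RNA was not analysed here, and the part of colonized cells in the protease levels was not tested.

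**Figure D5:**
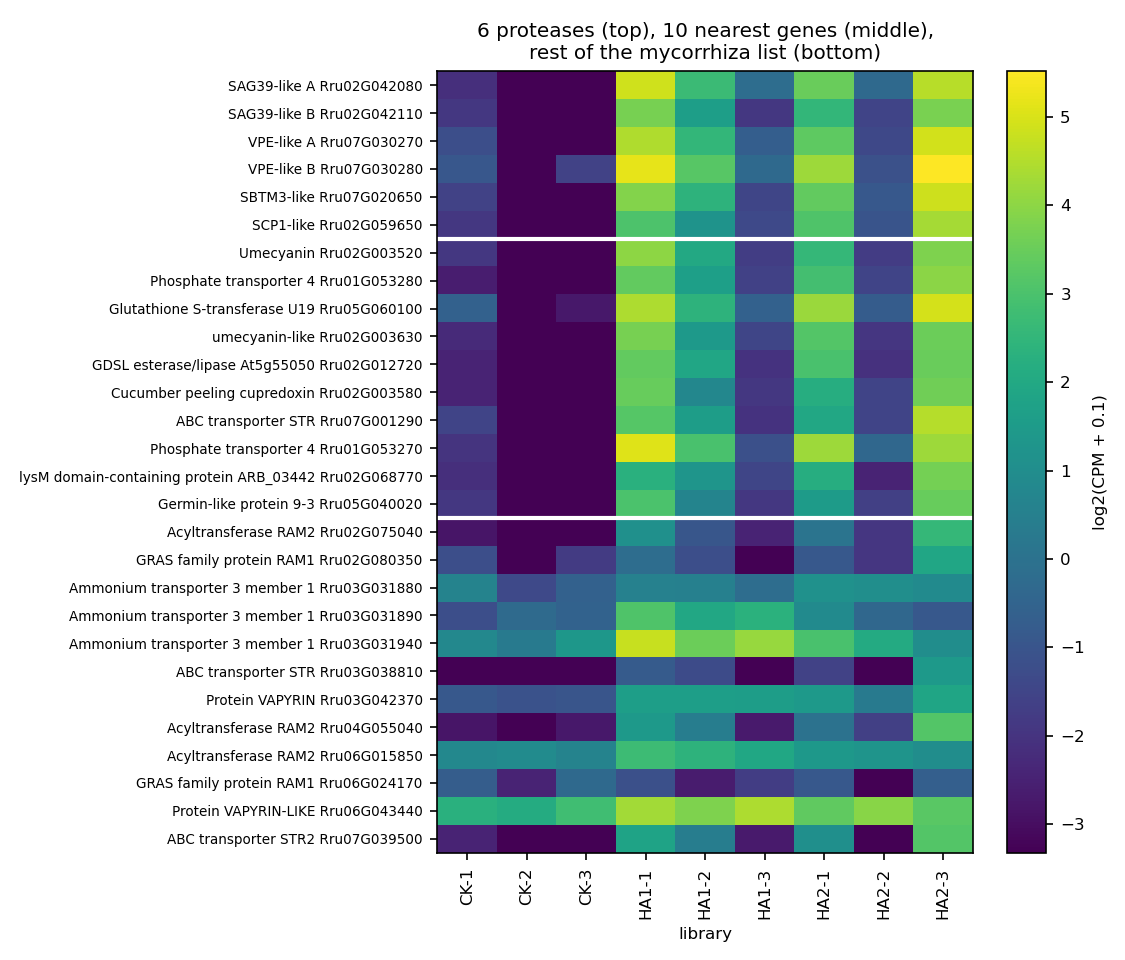
Colours give log2(CPM + 0.1) for the 6 proteases, the 10 genes nearest in pattern and the remaining tested genes of the mycorrhiza list, with libraries in columns. The first 16 rows are low in CK, in HA1 replicate 3 and in HA2 replicate 2, and the lowest block shows the same pattern for the RAM2 genes Rru02G075040 and Rru04G055040, for STR gene Rru03G038810 and for STR2.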

How the data were processed

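Per the labels, paired NovaSeq reads were obtained from polyadenylated root RNA. For 47983 genes and 9 libraries, the authors deposited counts (whole numbers) beside FPKM values (fragments scaled by gene length and library total), per the file headers. Reads were processed on the Biocloud platform, per the labels; for the aligner, counter, genome build and strand setting, nothing is stated (not given in the sources used here). Total counts ran from 33847262 to 42988605 per library.

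Samples were grouped by title. The count test was edgeR's quasi-likelihood test (edgeR 4.0.16, R 4.3.3), two-sided, after filterByExpr and TMM scaling. All 9 libraries shared one fit that gave each group its own mean. P-values were adjusted by Benjamini-Hochberg across the 25260 genes kept, and 0.05 was the threshold. SEs were derived from the fold change and its F statistic, and 95% intervals from the same fit. CPM values are TMM-scaled unless said otherwise. The deposited FPKM values entered no edgeR test and were used where genes of different length are set side by side. Intervals on a count are exact Poisson intervals; without molecular identifiers they cover counting error only. The procedure was tested on simulated data.

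The 6 genes and all lists were chosen with earlier results of these data known. Lists were matched by words in the deposited Swiss-Prot descriptions. Genes named beside the 6 were, by rule, the 3 with the lowest p per protease list and comparison with CK, the 10 nearest in pattern and the mycorrhiza list, of which a selection is printed. Other copies with the descriptions of the 6 genes were added after values were seen. So were the 2 common symbiosis genes with the lowest p in HA1 against CK and the other nodulation receptor kinase gene. None of the gene IDs matched the RefSeq gene table (0 of 47983), so no coordinates or sequences are given.

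Replicate numbers were checked for pairing after group means were removed. HA2 and CK libraries with the same number correlated at 0.12, 0.11 and 0.32, all above 0.1, so those numbers were treated as pairing these groups in an added comparison. For the other 2 comparisons they were not. The labels do not say what the number marks, and 3 of 9 libraries correlated best with a library of their own number. The replicate block entered a fit of all 9 libraries. Alternatives were RLE or total count scaling, DESeq2 1.42.0, other filters, fewer libraries, a replicate block and leaving out each library. Python 3.11.15, pandas 2.3.3 and, for plots, matplotlib 3.10.9 did the rest.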

Additional observations from a re-analysis of the deposited data

How the results depend on the processing

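None of the 6 proteases passed between HA2 and HA1 in any of 96 combinations of gene and alternative, with adjusted p from 0.498 to 1. The sign did not hold. With a replicate block the log2 fold change was -0.07 for Rru02G042110, -0.1 for Rru07G030270 and -0.48 for Rru07G030280, though the numbers were not treated as pairing HA2 with HA1. Leaving out each library gave -1.04 to 1.73 for Rru02G042080, -0.85 to 2.03 for Rru02G042110 and -0.87 to 2.11 for Rru07G030270. It gave -0.68 to 2.14 for Rru07G030280, -0.32 to 2.27 for Rru07G020650 and 0.28 to 2.95 for Rru02G059650. Another scaling or unit moved 30 of 30 levels and ratios of the 6 genes by less than 1 SD. The SDs were as large as the means or nearly so, so this could hardly have come out otherwise. Total count scaling or FPKM took the genes with every HA1 library above CK from 6 to 4. Calls over all genes depended on single libraries: leaving out each library gave 0 to 7003 calls for HA1 against CK, with 0 without CK replicate 1, 666 without CK replicate 3, and 1675, 823 and 2422 without HA1 replicates 1, 2 and 3, 0 to 1834 for HA2 against CK, where dropping CK replicate 2 gave 1421 and dropping HA2 replicate 3 gave 1834, and 0 to 0 for HA2 against HA1. For the protease lists it gave 0 to 42, 0 to 15 and 0 to 0. DESeq2 called 2189 genes for HA2 against CK and 947 for HA2 against HA1, and 49, 21 and 4 genes of the protease lists in the 3 comparisons. For HA2 against CK the edgeR count was 0 by total count scaling, with at least 1 CPM in 3 libraries, with only the 6 libraries compared and with a replicate block. The cause was not tested. Depth limits the low libraries, where 6 to 28 counts stand behind a value.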
